A study of Mus musculus with 6 samples.

Results

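The genes described here are 45 molecular chaperones and regulators of the unfolded protein response and the heat shock response, taken by symbol from a list that was drawn up with earlier results of these data known. All 45 had a row among the 46095 gene symbols of the count table, and they comprised 15 folding factors of the endoplasmic reticulum (ER), 7 sensors and degradation genes of the ER, 12 cytosolic heat shock genes, 3 mitochondrial chaperones and 8 subunits of the cytosolic chaperonin TRiC. They were measured by RNA sequencing in BV2 cells, a single immortalized line of mouse microglia. The CON group held 3 libraries of BV2 cells that received no sTREM-1, and the sTREM-1 group held 3 libraries of BV2 cells given recombinant sTREM-1, the soluble form of the receptor TREM-1, at 1 μg/mL for 6 h. The cells of both groups were grown in six-well plates, and the labels name no genetic change in either group. Whether the 3 libraries of a group came from separate cultures beyond separate wells is not given in the sources used here, and the study's methods state a larger n for these cultures than the 3 libraries per group that the labels and the table hold. The p-values thus measure the spread between these libraries.

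Chaperones bind proteins that are not yet folded or have lost their fold. In the ER, the HSP70 protein BiP (Hspa5) works with J-domain partners, the HSP90 protein GRP94 (Hsp90b1), the lectins calnexin and calreticulin, and the protein disulfide isomerases. When unfolded proteins accumulate, the sensors IRE1 (Ern1), ATF6 and PERK start the unfolded protein response, whose transcription factors, among them XBP1, raise the genes of ER folding and of ER-associated degradation (ERAD). In the cytosol the transcription factor HSF1 raises heat shock genes, HSP70 and HSP90 fold signaling proteins, and the ring-shaped complex TRiC folds actin and tubulin. Microglia, the phagocytes of the brain, make receptors and secreted proteins that fold in the ER.

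The libraries held 40070633 to 45877107 counts. Of all genes, 14120 had enough counts to be tested, and values are given as TMM-scaled CPM, the counts of a gene relative to the library's scaled total. The difference between sTREM-1 and CON was fitted in edgeR by quasi-likelihood, p-values were adjusted by Benjamini-Hochberg over all tested genes, and a gene was called where the adjusted p was under 0.05. By this rule 30.5% of all tested genes were called, 16.5% higher and 14.1% lower after sTREM-1. The median log2 fold change of all tested genes was -0.0017, and the range from their lower to their upper quartile ran from -0.13 to 0.13. Of 10 microglia and macrophage markers 9 were tested, with a summed level of 2262 to 2294 CPM in the CON group and 2497 to 2575 CPM after sTREM-1, and Aif1 was listed at 0. Most of the rise in this sum was Csf1r, a growth factor receptor, at 521 ± 3.13 CPM in the CON group and 753 ± 20.5 CPM after sTREM-1 (SD, n = 3 each). Ptprc, Trem2 and Cx3cr1 were also called higher, and the other 5 tested markers were not called, with Cd68 at 605 and 589 CPM and Tyrobp at 300.3 and 292 CPM. P2ry12, Cx3cr1 and Tmem119, which mark microglia of the brain, had means under 2 CPM in both groups. The part of these markers in the results below was not tested. In bulk RNA, fewer cells of a kind and less RNA per cell cannot be told apart. The summed neuronal, astrocyte and endothelial markers stayed under 3 CPM in every library, and those of oligodendrocytes ran from 7.31 to 7.93 CPM in the CON group and from 5.63 to 6.70 CPM after sTREM-1.

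Compared with the CON group, the chaperone genes moved in both directions after sTREM-1, and in the ER, the cytosol, the mitochondria and TRiC alike some genes rose while others fell. Of the 45 genes 42 were tested, of which 17 rose, 11 fell and 14 were not called. Thus 66.7% of the tested chaperone genes were called, against 30.5% of all tested genes, and since the list was not drawn up independently of these data, the shares are a description. The part of abundance in this was not tested beyond the following values. Of the 2413 tested genes with a mean of at least 100 CPM, a level chosen after the values were seen, 54.8% were called, against 74.2% of the 31 chaperone genes above that level. The groups did not overlap for 20 chaperone genes that were higher and 17 that were lower, where 40.7% of all tested genes had groups that did not overlap, 21.3% higher and 19.4% lower. The changes were small. Only Hspa8, Hsp90ab1, Pdia4 and Dnajb9 were called with at least a 1.2-fold change, a rule met by 10.7% of all tested genes, and the median log2 fold change of the 42 genes was 0.0010.

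**Figure D1:**
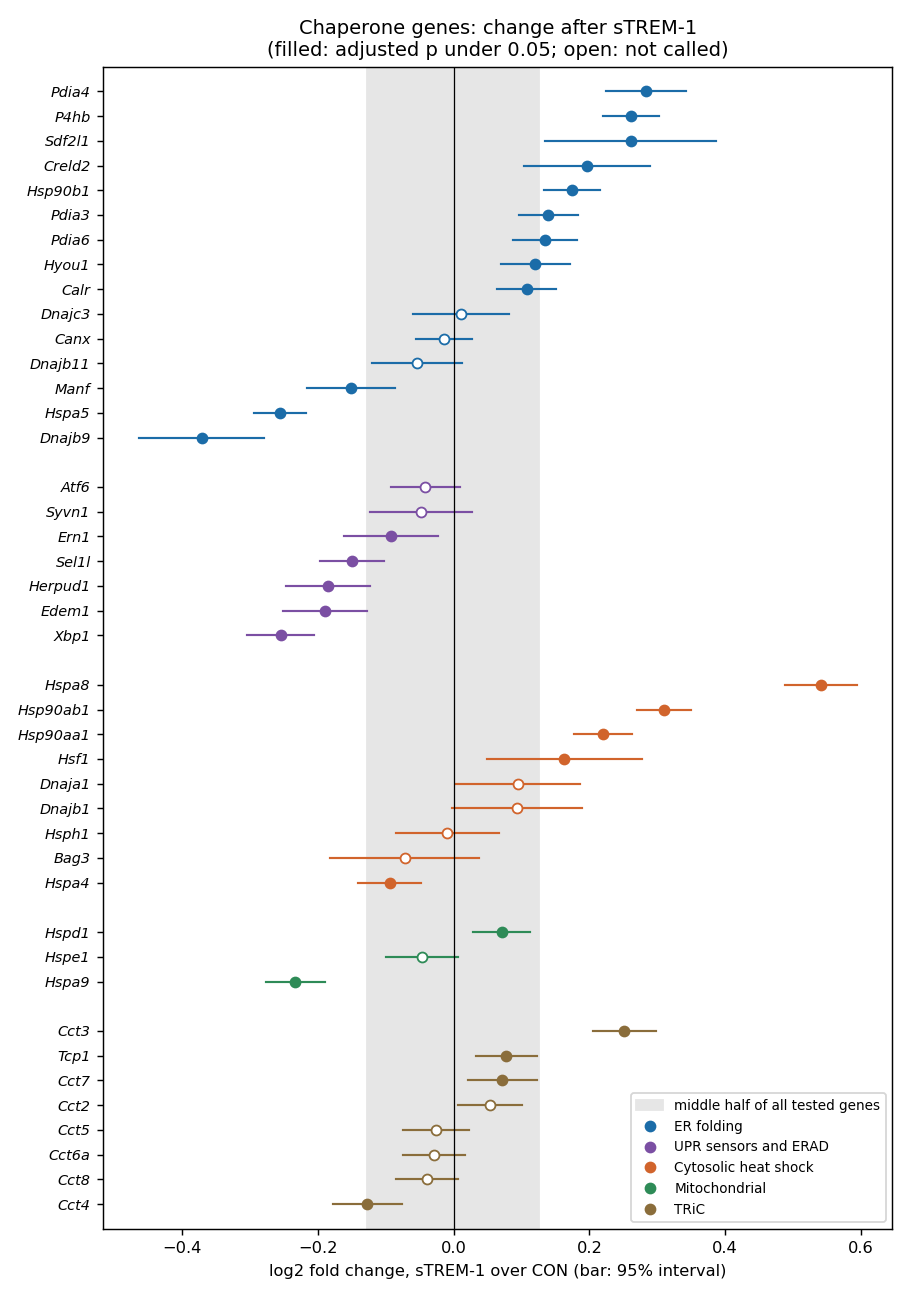
The log2 fold change of each tested chaperone gene (x axis) is drawn by class with its 95% interval, filled where the adjusted p-value was under 0.05, and the grey band runs from the lower to the upper quartile of all tested genes (-0.13 to 0.13). ER folding genes lay on both sides of 0, all 7 sensor and degradation genes lay below 0, and Hspa8 lay farthest right at 0.54.

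The sequences that some of these genes share upstream of their start are shown first, because they let genes with the same element be set beside each other. Windows of the 250 bases before the annotated start were searched on both strands in RefSeq promoters of GRCm38.p6, which held 36 of the 45 genes in 43 windows. Hyou1, Manf, Atf6, Hspa8, Hsp90aa1, Hsp90ab1, Hsf1, Hspa9 and Cct4 had no window and were not searched. The ER stress response element (ERSE), searched as CCAAT followed after any 9 bases by CCACG, is the site through which ATF6 and XBP1 act together with the factor NF-Y. Its letters were present in 37 of all 32851 windows (0.113%), and 8 of the chaperone genes were among them. The related ERSE-II, searched as ATTGG followed after any 1 base by CCACG, was present in 10 windows (0.0304%), among the chaperone genes in Herpud1. The heat shock element, searched as GAA, TTC and GAA with any 2 bases between them, was present in 153 windows (0.466%), among the chaperone genes searched in Hspd1 and Hspe1. A shorter XBP1 element, TGACGTG, was present in 1.65% of windows and among the chaperone genes in Hspa5. Each stretch below runs 5′ to 3′ along the strand of the gene, with the matched letters in capitals and 10 bases on either side. In Calr, Creld2 and the second element of Hsp90b1 the match is on the opposite strand and begins with CGTGG.

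The ERSE stretches are from chr2:34772015-34772053, plus strand for Hspa5, chr10:86705523-86705666, minus strand for Hsp90b1, which holds 2 elements in opposite orientations, chr8:84847065-84847103, minus strand for Calr, chr11:50325790-50325828, minus strand for Canx, chr12:17266481-17266519, plus strand for Pdia6, chr14:118937817-118937855, plus strand for Dnajc3, chr15:88819510-88819548, plus strand for Creld2 and chr19:6046522-6046560, plus strand for Syvn1. The ERSE-II stretch of Herpud1 is from chr8:94386367-94386397, plus strand.
Hspa5: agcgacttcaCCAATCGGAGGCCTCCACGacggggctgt
Hsp90b1: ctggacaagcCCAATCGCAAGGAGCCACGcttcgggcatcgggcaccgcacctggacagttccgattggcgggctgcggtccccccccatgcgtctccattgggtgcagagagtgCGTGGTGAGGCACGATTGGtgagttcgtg
Calr: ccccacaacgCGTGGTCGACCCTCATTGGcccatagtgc
Canx: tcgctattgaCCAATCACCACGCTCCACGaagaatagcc
Pdia6: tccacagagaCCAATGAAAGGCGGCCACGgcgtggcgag
Dnajc3: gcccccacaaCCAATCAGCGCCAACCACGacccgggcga
Creld2: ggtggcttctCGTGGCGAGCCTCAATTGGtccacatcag
Syvn1: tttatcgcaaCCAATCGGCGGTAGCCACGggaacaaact
Herpud1: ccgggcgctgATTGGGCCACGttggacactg
The genes that carry these letters did not move together. Hsp90b1, Calr, Pdia6 and Creld2 rose, Hspa5 and Herpud1 fell, and Canx, Dnajc3 and Syvn1 were not called. A match of letters is a description of the sequence and was not tested for binding.

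In the HSP70 machine of the ER, the gene of the central chaperone fell, and those of its partners moved in both directions or were not called. Hspa5 encodes BiP, which binds unfolded chains and holds the stress sensors inactive. It had 1574, 1599 and 1579 CPM in the CON libraries and 1311, 1331 and 1338 CPM after sTREM-1 (log2 fold change -0.26, SE 0.019, adjusted p = 5.06e-12). The groups were far apart, with the highest sTREM-1 value well under the lowest CON value. Dnajb9, a J-domain partner of BiP that restrains IRE1, had 51.1, 50.8 and 49.5 CPM in the CON libraries and 37.4, 40.4 and 39.4 CPM after sTREM-1. It fell by 0.37 on the log2 scale (SE 0.045, adjusted p = 1.29e-07), the largest fall among the 42 tested genes. Manf, an ER-resident and secreted factor that binds BiP, had 130.1, 133 and 124 CPM in the CON libraries and 115, 118 and 115 CPM after sTREM-1 (log2 fold change -0.15, SE 0.032, adjusted p = 0.000434). In Manf too the groups did not overlap, and by adjusted p Hspa5, Dnajb9 and Manf were the 3 ER folding genes called lower.

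Hsp90b1, which encodes GRP94, moved the other way. It had 927, 936 and 919 CPM in the CON libraries and 1042, 1060.4 and 1038 CPM after sTREM-1 (log2 fold change 0.17, SE 0.020, adjusted p = 4.41e-08). Within single libraries, the ratio of Hsp90b1 to Hspa5 counts, which does not depend on the scaling, was 0.589, 0.586 and 0.582 in the CON group and 0.795, 0.797 and 0.776 after sTREM-1. The pair was chosen after its values were seen, and both genes carry an ERSE in the stretches printed above. Hyou1, a large HSP70-like protein that exchanges nucleotide on BiP, had 326, 324 and 330.3 CPM in the CON libraries and 348, 352 and 366 CPM after sTREM-1 (log2 fold change 0.12, SE 0.025, adjusted p = 0.000324). Sdf2l1, a partner of the ER J-domain proteins, was the least abundant of these genes, with 23.6, 22.1 and 21.6 CPM in the CON libraries and 25.4, 27.3 and 27.8 CPM after sTREM-1 (log2 fold change 0.26, SE 0.062, adjusted p = 0.00149). Both rose, with no overlap between the groups. The J-domain genes Dnajb11 and Dnajc3 were not called. Their 95% intervals of the log2 fold change ran from -0.12 to 0.012 for Dnajb11 and from -0.059 to 0.082 for Dnajc3, and the 3 sTREM-1 libraries of Dnajb11, at 103, 103 and 98.8 CPM, all lay below its CON libraries, at 106, 106 and 105 CPM.

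The protein disulfide isomerases, which form and rearrange disulfide bonds, rose in all 4 genes of the list. P4hb, the founding isomerase and also a subunit of collagen prolyl hydroxylase, had 931, 939 and 909 CPM in the CON libraries and 1107, 1105 and 1118 CPM after sTREM-1 (log2 fold change 0.26, SE 0.020, adjusted p = 1.46e-11). Pdia4 had 128, 132 and 129 CPM in the CON libraries and 156, 159.6 and 157 CPM after sTREM-1, a 1.22-fold change and the largest rise among the 22 ER genes of the list (log2 fold change 0.28, SE 0.029, adjusted p = 4.58e-09). For P4hb and Pdia4 the spread within each group was far smaller than the gap between them. Pdia3, which works on glycoproteins held by the lectins, had 507, 511 and 508 CPM in the CON libraries and 561, 557 and 562 CPM after sTREM-1 (log2 fold change 0.14, SE 0.021, adjusted p = 6.66e-06). Pdia6 had 421, 420.0 and 417 CPM in the CON libraries and 451, 461 and 469.9 CPM after sTREM-1 (log2 fold change 0.14, SE 0.023, adjusted p = 3.13e-05). The groups did not overlap for any of the 4 isomerase genes.

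Of the lectins that hold sugar-bearing chains, Calr rose and Canx was not called, and the difference between them was not tested. Calr, the soluble lectin calreticulin, had 866, 839 and 869 CPM in the CON libraries and 912, 920.4 and 941 CPM after sTREM-1 (log2 fold change 0.11, SE 0.021, adjusted p = 0.000197). Canx, its membrane-bound relative calnexin, had 1012, 1035 and 1024 CPM in the CON libraries and 1014, 1030.5 and 997 CPM after sTREM-1. The Canx groups overlapped, and the 95% interval of its log2 fold change ran from -0.056 to 0.028. Creld2, an ER protein raised in ER stress, had 52.8, 52.0 and 48.6 CPM in the CON libraries and 59.0, 55.2 and 61.6 CPM after sTREM-1 (log2 fold change 0.20, SE 0.045, adjusted p = 0.00113), again with no overlap. In all, 9 of the 15 ER folding genes rose, 3 fell and 3 were not called, with a median log2 fold change of 0.12. This was 80% called, against 30.5% of all tested genes and 54.8% of those with at least 100 CPM.

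None of the 7 sensors and degradation genes of the ER had a positive log2 fold change, and 5 of them fell. Xbp1, the transcription factor whose mRNA is spliced by IRE1, had 297, 299.7 and 294 CPM in the CON libraries and 249, 250.4 and 247 CPM after sTREM-1 (log2 fold change -0.26, SE 0.024, adjusted p = 1.33e-09). The table counts reads per gene, so spliced and unspliced Xbp1 could not be told apart. Herpud1, a membrane protein of the degradation complex, had 143, 136 and 141 CPM in the CON libraries and 122, 125 and 122 CPM after sTREM-1 (log2 fold change -0.19, SE 0.030, adjusted p = 1.67e-05). Edem1, which directs misfolded glycoproteins to degradation, had 321, 328 and 328 CPM in the CON libraries and 289.9, 299.9 and 266 CPM after sTREM-1 (log2 fold change -0.19, SE 0.030, adjusted p = 1.19e-05). The groups did not overlap in any of these genes, and in Edem1 the third sTREM-1 library was the lowest.

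Sel1l, the adaptor of the ubiquitin ligase Syvn1, had 429, 424 and 427 CPM in the CON libraries and 389.9, 386 and 377 CPM after sTREM-1 (log2 fold change -0.15, SE 0.023, adjusted p = 6.77e-06). Syvn1 itself was not called, with 76.9, 81.0 and 80.3 CPM in the CON libraries, 76.0, 75.2 and 79.2 CPM after sTREM-1 and a 95% interval of the log2 fold change from -0.12 to 0.026. Thus the ligase overlapped between the groups while its adaptor did not, and the difference between them was not tested. Ern1, which encodes IRE1, had 99.1, 94.3 and 98.7 CPM in the CON libraries and 92.9, 89.5 and 91.7 CPM after sTREM-1, near the threshold (log2 fold change -0.092, SE 0.034, adjusted p = 0.0385). With edgeR's quasi-likelihood test its adjusted p was 0.143 without CON replicate 1, 0.114 without CON replicate 3, 0.0513 without sTREM-1 replicate 1, 0.125 without sTREM-1 replicate 2, 0.0586 without sTREM-1 replicate 3 and 0.0569 without a filter on low counts. Atf6 was not called, with 255, 256 and 258 CPM in the CON libraries and 249.7, 249 and 249 CPM after sTREM-1, and its 95% interval ran from -0.092 to 0.0087. The median log2 fold change of the 7 genes was -0.15. Of these genes 71.4% were called, against 30.5% of all tested genes and 54.8% of those with at least 100 CPM.

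**Figure D2:**
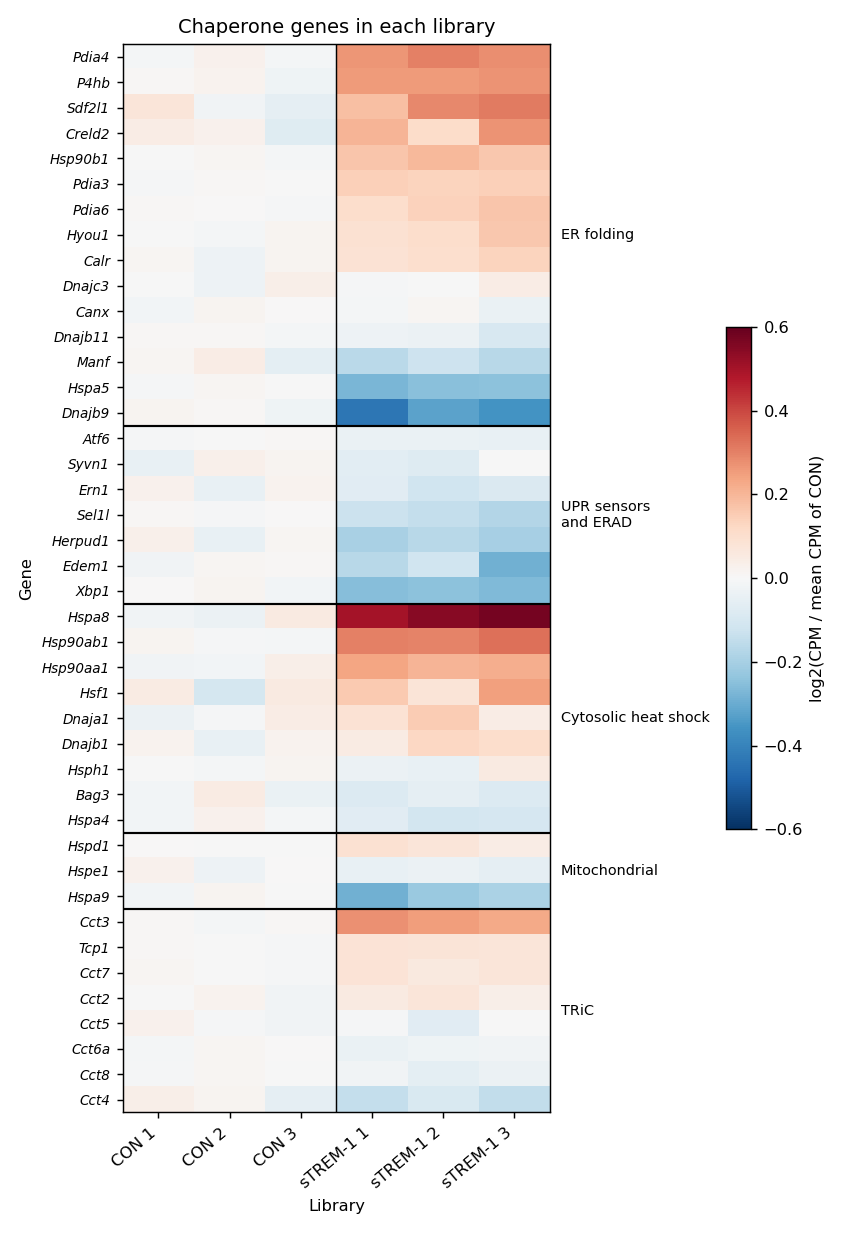
Each cell gives the level of one chaperone gene (rows, by class) in one library (columns) as the log2 ratio of its CPM to the mean of the 3 CON libraries. The rows of Hspa8 (higher) and Dnajb9 (lower), which were called, keep one colour across the 3 sTREM-1 libraries. The row of Canx, which was not called, stays pale, as do some called rows of small change such as Hspd1.

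Other genes of the same ER pathways were read from 2 further lists. Of 22 other folding and glycoprotein quality control genes, 4 rose, 3 fell and 15 were not called. The share called was 31.8%, near the 30.5% of all tested genes, and the median log2 fold change was 0.0026. Of the tested genes with at least 100 CPM 54.8% were called. The part of abundance in the shares of this and the other further lists was not tested. Ero1l, the oxidase that recharges the disulfide isomerases, rose from 994 ± 30.6 to 1192 ± 57.6 CPM (SD, n = 3 each, log2 fold change 0.26, SE 0.026, adjusted p = 2.81e-09). Ganab, which trims glucose from glycoproteins, and Ppib, an ER prolyl isomerase, rose with log2 fold changes of 0.11 and 0.11. A fall was called for the isomerase-like genes Txndc5 (-0.15) and Txndc11 (-0.16) and for the HSP70-like Hspa13 (-0.19), all as log2 fold changes. Thus the disulfide isomerase family was not uniform beyond the 4 genes above.

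Of 20 tested of 22 other unfolded protein response and degradation genes, 5 rose and 7 fell. This was 60% called, against 30.5% of all tested genes and 54.8% of those with at least 100 CPM, with a median log2 fold change of -0.074. Ddit3, which encodes the stress transcription factor CHOP, fell from 141 ± 3.28 to 118 ± 0.423 CPM (SD, n = 3 each, log2 fold change -0.26, SE 0.030, adjusted p = 4.02e-08). Ube2g2, a ubiquitin-conjugating enzyme of the degradation pathway, fell from 67.6 ± 0.370 to 50.7 ± 1.90 CPM (log2 fold change -0.42, SE 0.040, adjusted p = 1.69e-09). Mbtps1, the protease that activates ATF6, and Vcp, the ATPase that extracts chains from the ER, rose with log2 fold changes of 0.20 and 0.16. Ufd1l, a cofactor of Vcp, had 0.830, 0.975 and 0.539 CPM in the CON libraries and 6.61, 2.65 and 2.75 CPM after sTREM-1 (log2 fold change 2.36, SE 0.29, adjusted p = 2.04e-07), and 1 sTREM-1 library stood far above the other 2. These values rest on few counts, 34, 40 and 22 in the CON libraries and 302, 113 and 109 after sTREM-1. Whether the counting set this low level was not tested. Atf6b and Derl3 were not tested.

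**Figure D3:**
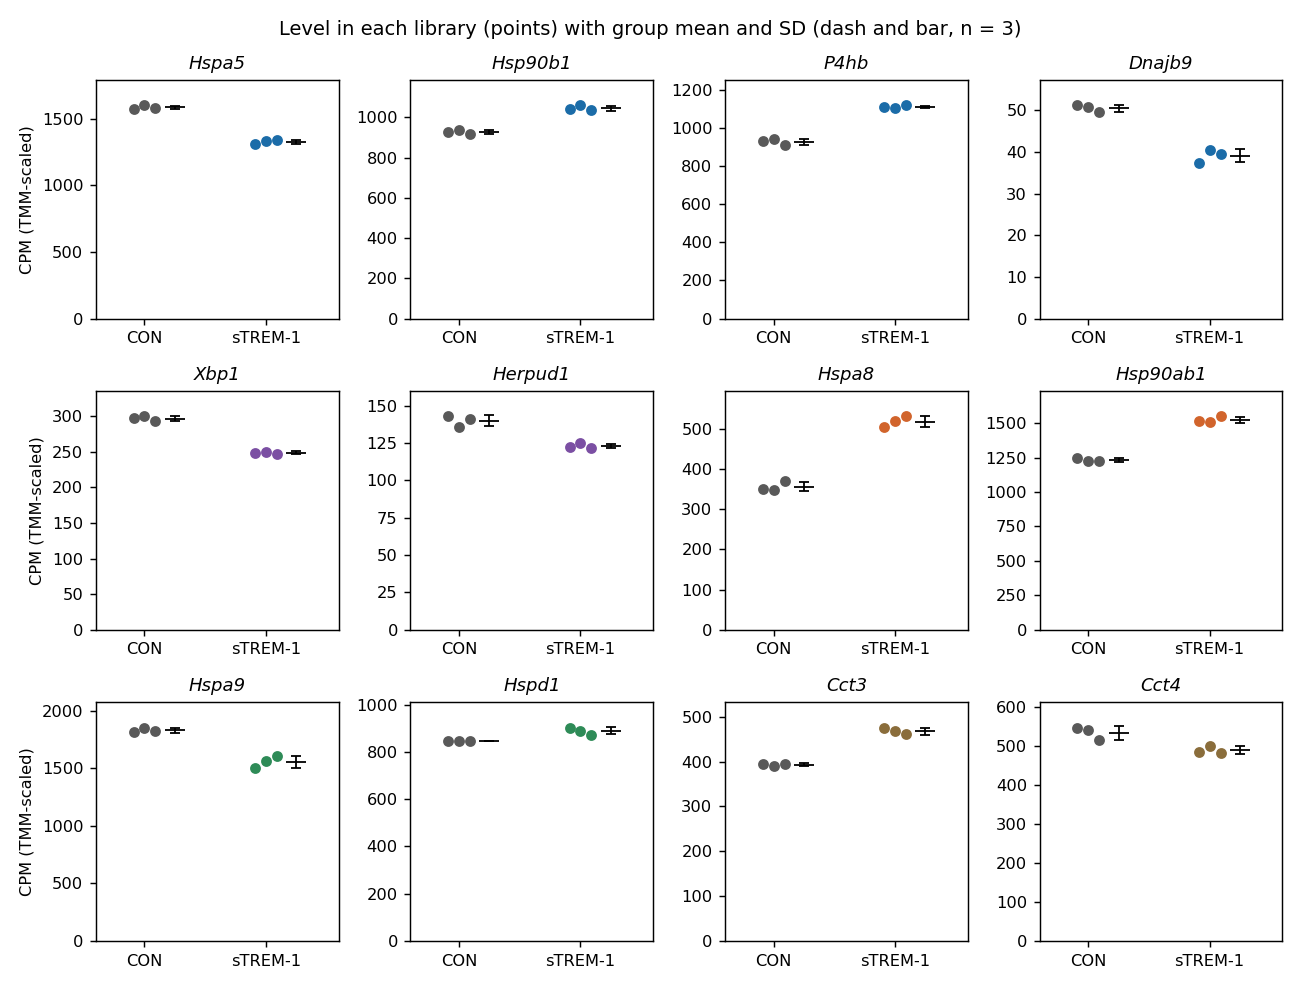
The level of 12 chaperone genes in CPM (y axis, from 0) is drawn for each library as a point, with the group mean and SD (n = 3) beside it. Within an ER pair such as Hspa5 and Hsp90b1, a mitochondrial pair such as Hspa9 and Hspd1 and a TRiC pair such as Cct4 and Cct3, the first gene was lower and the second higher after sTREM-1.

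Among the 9 tested cytosolic heat shock genes 4 rose, 1 fell and 4 were not called (median log2 fold change 0.095), and those that rose included the constitutive HSP70 and both HSP90 genes. The share called was 55.6%, against 30.5% of all tested genes and 54.8% of those with at least 100 CPM. Hspa8, the HSP70 that cells make without stress, had 350.3, 348 and 369 CPM in the CON libraries and 504, 519 and 530.3 CPM after sTREM-1, a 1.46-fold change (log2 fold change 0.54, SE 0.026, adjusted p = 3.92e-16). This was the largest change of the 42 tested genes. Hsp90ab1, the constitutive HSP90, had 1246, 1222 and 1222 CPM in the CON libraries and 1517, 1510.0 and 1549 CPM after sTREM-1 (log2 fold change 0.31, SE 0.019, adjusted p = 1.46e-13). Hsp90aa1, the HSP90 that heat shock induces, had 848, 850.3 and 880.2 CPM in the CON libraries and 1013, 991 and 998 CPM after sTREM-1 (log2 fold change 0.22, SE 0.021, adjusted p = 1.24e-09). For all of these the groups were wide apart, although reads of these genes could have been split with near-identical copies in the counting.

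Hspa4, an HSP70-like exchange factor, fell, from 565, 582 and 565 CPM in the CON libraries to 544, 528 and 531 CPM after sTREM-1 (log2 fold change -0.094, SE 0.022, adjusted p = 0.0015). The ratio of Hspa8 to Hspa4 counts within a library, a pair chosen after its values were seen, was 0.620, 0.598 and 0.654 in the CON group and 0.926, 0.983 and 0.998 after sTREM-1. Hsf1, the heat shock transcription factor, had 31.9, 28.6 and 32.0 CPM in the CON libraries and 34.4, 32.6 and 36.6 CPM after sTREM-1 (log2 fold change 0.16, SE 0.056, adjusted p = 0.0254). With edgeR's quasi-likelihood test the adjusted p of Hsf1 was 0.187 without CON replicate 2, 0.0652 without sTREM-1 replicate 1 and 0.171 without sTREM-1 replicate 3, with a log2 fold change of 0.11, 0.16 and 0.12 in turn. The heat-inducible co-chaperones were not called. Dnaja1 had 45.2, 46.1 and 47.8 CPM in the CON libraries and 49.2, 51.5 and 47.8 CPM after sTREM-1, and Dnajb1 had 38.9, 37.1 and 38.9 CPM and 39.6, 41.7 and 41.2 CPM. Neither pair of groups overlapped, the sTREM-1 libraries being the higher, in Dnaja1 by a narrow margin. The 95% intervals, which are not adjusted for the number of genes, of the log2 fold change ran from 0.0041 to 0.19 for Dnaja1, from -0.0021 to 0.19 for Dnajb1, from -0.085 to 0.067 for Hsph1, an exchange factor, and from -0.18 to 0.038 for Bag3, which couples HSP70 to autophagy.

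The inducible HSP70 genes Hspa1a and Hspa1b and the small heat shock protein Hspb1 were not tested. Hspa1a and Hspb1 were listed at 0 in all 6 libraries, and Hspa1b had 1 count in CON replicate 1 and 0 elsewhere. These zeros of Hspa1a and Hspa1b could not be read as a lack of transcript. In the order of the RefSeq genes of GRCm38.p6, 23 of the 40 protein-coding genes around Hspa1a on chromosome 17 (20 on each side) were listed at 0 in all libraries, against 32.1% of all protein-coding rows. Among these neighbours were genes that cells in general use, such as Csnk2b, a casein kinase subunit listed at 0, and Atf6b, with 24 counts over all libraries. Brd2, a chromatin reader found in most cells, lay 43 genes away and had 195 counts over all libraries. Not all genes nearby were empty, since Neu1, a lysosomal sialidase 2 genes away, had 2153 counts over all libraries. These genes were picked after their values were seen. Aif1 and Pfdn6, which the marker and cofactor lists hold, lay 23 and 55 genes from Hspa1a, with 0 and 82 counts over all libraries. Around Hspb1 on chromosome 5, only 7 of 40 genes were listed at 0, and its neighbours Mdh2 and Ywhag had 89550 and 125921 counts. For Hspb1 a count of 0 allows up to 3 counts per library, or 0.0656 to 0.0756 CPM, which covers counting error only.

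Of 22 tested of 26 other cytosolic co-chaperone genes, 6 rose, 2 fell and 14 were not called. This was 36.4% called, against 30.5% of all tested genes, with a median log2 fold change of 0.036. Cdc37, which brings kinases to HSP90, rose with a log2 fold change of 0.23 (SE 0.033, adjusted p = 2.85e-06). Stip1, which links HSP70 to HSP90, rose with a log2 fold change of 0.15 (SE 0.029, adjusted p = 0.00011). Hspa14, a ribosome-bound HSP70, rose with a log2 fold change of 0.24. Dnajb2, a J-domain protein, fell from 46.9 ± 1.02 to 36.3 ± 3.05 CPM (SD, n = 3 each, log2 fold change -0.37, SE 0.052, adjusted p = 1.53e-06), and Chordc1, an HSP90 partner, fell with a log2 fold change of -0.097.

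The 3 mitochondrial chaperones did not share a direction. Hspa9, the mitochondrial HSP70 that draws proteins through the inner membrane, had 1814, 1855 and 1827 CPM in the CON libraries and 1502, 1568 and 1606 CPM after sTREM-1 (log2 fold change -0.23, SE 0.021, adjusted p = 3.78e-10). In CPM it had the highest level of the 45 genes in each CON library, and it fell with no overlap between the groups. Hspd1, the chaperonin HSP60, had 848, 844 and 846 CPM in the CON libraries and 903, 891 and 873 CPM after sTREM-1 (log2 fold change 0.071, SE 0.021, adjusted p = 0.00803). Without sTREM-1 replicate 1 the log2 fold change of Hspd1 was 0.059 and its adjusted p by edgeR's quasi-likelihood test was 0.0815. Hspe1, the lid of that chaperonin, had 231, 223 and 227 CPM in the CON libraries and 219.9, 221 and 219 CPM after sTREM-1, lower in 3 of 3 libraries, yet it was not called (log2 fold change -0.046, SE 0.026, adjusted p = 0.197). Rows for pseudogenes named after Hspd1 and Hspe1 held 2.28% and 1.34% as many counts as these genes.

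Hspd1 and Hspe1 lie head to head and share the stretch between them. The heat shock element of both is the same piece of DNA, at chr1:55088049-55088086, plus strand, and the 2 overlapping matches in it are in capitals. It is printed because both genes carry it, where Hspd1 was called higher and Hspe1 was not called.
Hspe1: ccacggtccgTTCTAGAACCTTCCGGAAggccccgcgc
The log2 fold changes of the pair were 0.071 for Hspd1 and -0.046 for Hspe1, with 95% intervals from 0.029 to 0.11 and from -0.10 to 0.0070, which did not overlap. The difference itself was not tested.

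Of 16 other genes of mitochondrial protein quality control, 6 rose, none fell and 10 were not called. This was 37.5% called, against 30.5% of all tested genes, with a median log2 fold change of 0.073. Afg3l2, a protease of the inner membrane, rose from 316 ± 6.92 to 384 ± 4.28 CPM (SD, n = 3 each, log2 fold change 0.28, SE 0.024, adjusted p = 1.31e-10). Trap1, the mitochondrial HSP90, and Lonp1, a matrix protease, rose with log2 fold changes of 0.21 and 0.15.

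TRiC is built from 8 different subunits that stand beside each other in each ring, and their mRNAs did not change in step. Cct3 had 395, 389.7 and 395 CPM in the CON libraries and 476, 467 and 461 CPM after sTREM-1 (log2 fold change 0.25, SE 0.023, adjusted p = 4.55e-10). Cct4 had 548, 541 and 515 CPM in the CON libraries and 485, 502 and 483 CPM after sTREM-1 (log2 fold change -0.13, SE 0.025, adjusted p = 0.000171). Cct3 thus rose and Cct4 fell, and the ratio of Cct3 to Cct4 counts within a library, chosen after its values were seen, was 0.720, 0.720 and 0.766 in the CON group and 0.982, 0.931 and 0.954 after sTREM-1. Tcp1, the first subunit, had 438, 435 and 434 CPM in the CON libraries and 461, 459.7 and 459 CPM after sTREM-1 (log2 fold change 0.078, SE 0.022, adjusted p = 0.00734). Cct7 had 259, 256 and 256 CPM in the CON libraries and 272, 268 and 270.4 CPM after sTREM-1 (log2 fold change 0.072, SE 0.025, adjusted p = 0.0249). The rise of Cct7 was close to the threshold, with an adjusted p by edgeR's quasi-likelihood test of 0.0507, 0.0697 and 0.0861 without CON replicates 1, 2 and 3, 0.108 without sTREM-1 replicate 1 and 0.0892 with library totals in place of TMM.

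The other 4 TRiC subunits were not called. The log2 fold changes were 0.053 for Cct2, -0.025 for Cct5, -0.029 for Cct6a and -0.039 for Cct8, and only in Cct5 did the groups overlap. The median log2 fold change of the 8 subunits was 0.014 with TMM and -0.0027 with library totals only, so that its sign depended on the scaling. Of the 8 subunits 50% were called, against 30.5% of all tested genes and 54.8% of those with at least 100 CPM. Of 11 tested of 12 prefoldin and other cofactor genes, a rise was called for Tbcb, a tubulin cofactor (log2 fold change 0.18), and the prefoldin subunits Pfdn4 (-0.23) and Pfdn2 (-0.15) and the tubulin cofactor Tbca (-0.12) fell. The groups of Pfdn2 and Tbca overlapped, and 36.4% of the list was called, against 30.5% of all tested genes.

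**Figure D4:**
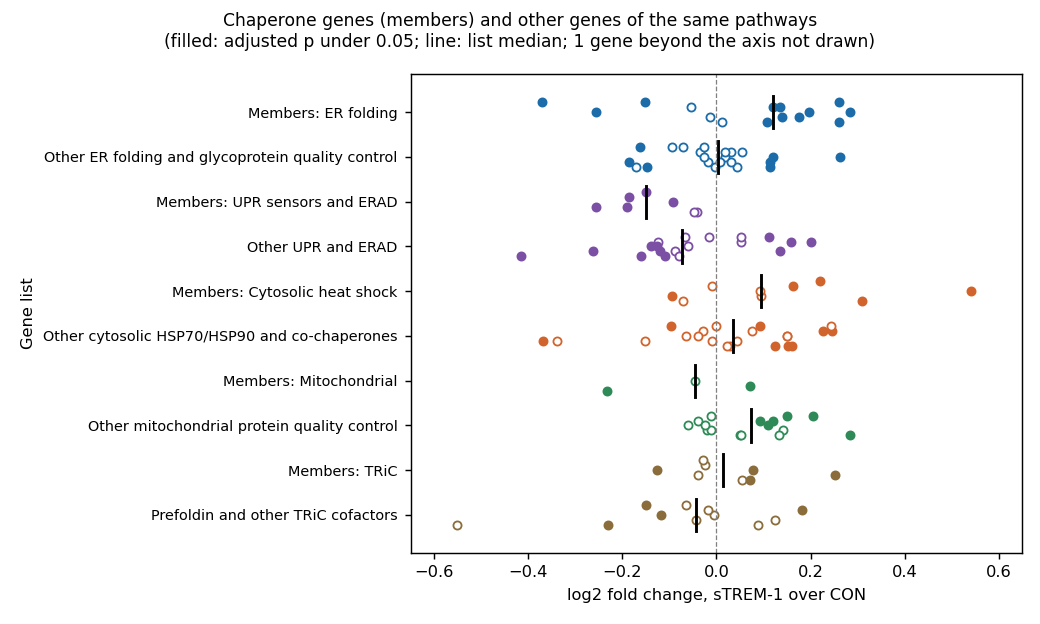
The log2 fold change of each tested gene (x axis) is drawn for the chaperone genes by class (members) and for the other genes of the same pathways, filled where the adjusted p-value was under 0.05, with a line at the median of each list. The medians ran from -0.15 for the sensor and degradation genes to 0.12 for the ER folding genes, and Ufd1l at 2.36 lay beyond the axis.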

How the data were processed

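The authors extracted RNA with Trizol, checked reads with FastQC, quantified genes with RSEM and FPKM, and compared groups with edgeR. What they deposited is a table of raw counts, 1 row per symbol. The submitters' processing notes list HISAT2 2.0.4 and the human builds hg19 and GRCh38, although the symbols are of the mouse. The mouse build, the annotation and the use of strand are not given in the sources used here, so overlapping, antisense and near-identical genes are uncertain.

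Low genes were removed by filterByExpr at a minimum count of 10. edgeR 4.0.16 (R 4.3.3) then gave TMM factors, CPM and a quasi-likelihood fit over all genes, with treatment as the sole term and Benjamini-Hochberg adjustment at 0.05. The F statistic and its degrees of freedom gave standard errors and 95% intervals. The chaperone genes, classes and wider lists were chosen with earlier results of these data known. Values per library are given for called genes and for the 4 genes of largest change per class, and at most 3 called genes per direction are named from each wider list, by smallest adjusted p, except 1 gene that is not reported here. Any other gene was named after its values were seen. Alternatives were RLE factors, library totals only, DESeq2 1.42.0, no filter, a stricter filter of 10 counts in each library, a replicate block, a minimum fold of 1.2 and leaving out each library. The procedure was tested on simulated counts with changes of at least 1.2-fold, so smaller changes were not covered. A chi-square per gene of 3.46 to 5.04 between libraries of one group exceeded sampling noise, so each was kept as a separate library in the fit. Whether the libraries came from separate cultures cannot be read from this value.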

Additional observations from a re-analysis of the deposited data

How the results depend on the processing

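The number of chaperone genes called higher was 17 and lower 11. Under a minimum fold of 1.2 these were 3 and 1, and they ran from 14 to 17 and from 10 to 11 without each library in turn. Of the 28 called genes 24 were called in each of the 12 alternatives other than the 1.2-fold rule, and Ern1, Hsf1, Hspd1 and Cct7 were not. No called gene changed sign, while Dnajc3 and Hsph1, which were not called, did so in some alternatives. With library totals only, the median log2 fold change of the mitochondrial genes was -0.063 in place of -0.046 and that of the TRiC genes -0.0027 in place of 0.014, as this scaling lowered all genes (median -0.018). Without each library the medians ran from -0.062 to -0.033 for mitochondrial, 0.0058 to 0.020 for TRiC and 0.077 to 0.12 for cytosolic genes, so that the sign of the TRiC median turned with the scaling but not with any one library. A replicate block gave 18 higher and 11 lower, with Cct2 added (adjusted p = 0.0478, edgeR's quasi-likelihood test). Over all tested genes the block gave 4613 called, against 4312 without it. The values below showed no pairing of the libraries by number, although a pairing that acts on few genes would not show in them. Across genes, the correlation between the deviations of libraries with one number was -0.018, -0.034 and -0.014. No library correlated best with its own number. The cause of the other shifts was not tested. Hspa1a, Hspa1b and Hspb1 did not pass the filter on low counts, and whether depth or the counting set this was not tested.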

Other observations

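Set against exonic length (GENCODE M21 union of exons, all 45 genes matched by symbol), the chaperone genes spanned a wide range of levels in the CON group. In CPM per kilobase, Hspa9 was at 601, Hsp90ab1 at 488, Hspa5 at 422, Calr at 393 and Hspd1 at 349, and among the tested genes Dnaja1 was lowest at 8.03. After sTREM-1 Hsp90ab1 stood at 605 and Hspa9 at 511 CPM per kilobase, so that their order was exchanged, and P4hb at 388 stood above Hspa5 at 353. In CPM, not set against length, neither order was exchanged. After sTREM-1 Hspa9 had 1559 and Hsp90ab1 1525 CPM, and Hspa5 had 1327 and P4hb 1110 CPM. These are group means, and the file's own gene models were not used.

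Summed over the 12 cytosolic heat shock genes, the level was 3237 ± 21.5 CPM in the CON group and 3807 ± 32.8 CPM after sTREM-1 (SD, n = 3 each), a ratio of 1.18. This is in effect a sum of the 9 tested genes, since Hspa1a, Hspa1b and Hspb1 added almost nothing. The zeros of Hspa1a and Hspa1b could not be read as a lack of transcript. The summed sensor and degradation genes had 1622 ± 3.71 and 1459 ± 23.3 CPM (ratio 0.899), and the 3 mitochondrial genes had 2906 ± 15.0 and 2668 ± 37.8 CPM (ratio 0.918). The sums of the ER folding genes had a ratio of 1.03 and those of TRiC of 1.01. The most abundant genes set these sums, so that the ER folding sum joins the fall of Hspa5 with the rise of Hsp90b1, P4hb and Calr. Dnajb9 and Manf, which add less to it, also fell.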
